A study of Homo sapiens with 4 samples.

Results

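The lysosomal genes described here are 47 genes, of the 28775 genes counted, that encode the acid hydrolases of the lysosome, their activator proteins and proteins of the lysosomal membrane. They were taken by name from a list of genes that factors of the MiT/TFE family control, by matching the Entrez identifiers of the deposited table to symbols, and all 47 were found. RNA was sequenced from 4 samples of HEK293T, a human embryonic kidney line that carries the SV40 large T antigen. Replicate 1 of the MORC2 KO (KO1) was edited with gRNA 1 and replicate 2 (KO2) with gRNA 2, both delivered together with Cas9 protein, and the 2 WT samples (WT1 and WT2) have no gRNA. MORC2 is an ATPase that works with the HUSH complex in the silencing of chromatin, and the comparison asks how its loss changes gene expression. The KO samples are bulk populations and not clones, the sequences of the gRNAs overlap, and each gRNA has 1 sample, so that gRNA and sample cannot be told apart. The same holds for the loss of MORC2 and the editing procedure, since the WT samples are listed with no gRNA. Polyadenylated RNA was captured, and the read pairs counted on genes came to 59803625 for KO1, 64312514 for KO2, 60331708 for WT1 and 53970043 for WT2. In what follows the values of a gene are given in the order KO1, KO2, WT1, WT2. The methods call the replicates of either genotype independent, and the labels do not name their cultures. The same methods name HEK293 cells as those that were edited, whereas the labels give HEK293T for every sample. The paper's results and its ATAC-seq methods also name the KO cells as HEK293T. A difference of line between KO and WT, if there was one, could not be told apart from the loss of MORC2.

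Lysosomes break down proteins, glycans, lipids and nucleic acids with hydrolases that work at acid pH. Most of these enzymes are sorted by a mannose 6-phosphate tag, and the V-ATPase pumps in the protons. MITF, TFEB, TFE3 and TFEC make up the MiT/TFE family, which binds the E-box CACGTG. TFEB, TFE3 and MITF are held in the cytosol by mTORC1 and switch on many lysosomal genes through an extended E-box called the CLEAR element. TFEC lacks an activation domain that its relatives have and is found mainly in cells of the macrophage lineage.

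The promoters of the lysosomal genes were searched for the E-box, and the sites are shown because they are what MiT/TFE factors are known to bind. RefSeq promoters on GRCh38.p14, from 250 bases before to 50 bases after the gene start, were at hand for 33 of the 47 genes. The 8 letters TCACGTGA, the core of the CLEAR element, were found in 6 of these 33 (18.2%) and in 1.18% of the 27305 genes with a promoter. The E-box CACGTG was in 10 of the 33 (30.3%) against 8.77%. Both motifs read the same on either strand, and the shorter lies inside the longer, so the counts are nested. Among the genes that passed the filter on low counts the shares were 2.01% and 12.1%. Since the list was chosen as genes that MiT/TFE factors control, its higher shares describe the choice and test nothing. The sites of the 6 genes are printed 5′ to 3′ on the strand of the gene, with TCACGTGA in capitals and with the distance from its first base to the gene start.
GAA, 77 bases before the start, chr17:80101494-80101521, plus strand: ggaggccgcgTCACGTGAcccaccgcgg
GAA, 32 bases before the start, chr17:80101539-80101566, plus strand: ctcccgccggTCACGTGAcccgcctctg
GALNS, 175 bases before the start, chr16:88857105-88857132, minus strand: aggcaccgcgTCACGTGAcccgccgctg
MCOLN1, 42 bases before the start, chr19:7522572-7522599, plus strand: ccagaggcggTCACGTGAggggctctgg
MCOLN1, 15 bases before the start, chr19:7522599-7522626, plus strand: ggctaccgggTCACGTGAccgaggcaca
LAMP1, 29 bases before the start, chr13:113297200-113297227, plus strand: acccgcgggaTCACGTGAcgcccgggcg
LAMP1, 2 bases before the start, chr13:113297227-113297254, plus strand: gcggcgcagcTCACGTGAcaagcgctgc
CTSA, 26 bases before the start, chr20:45891299-45891326, plus strand: gcgccggagtTCACGTGActcgtacaca
CLN3, 2 bases before the start, chr16:28492059-28492086, minus strand: gcgggtgctgTCACGTGAtccgacaaac
GAA, LAMP1 and MCOLN1 have 2 sites each. A match of letters is a description of the window and does not show that a factor is bound.

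The labels hold for the targeted gene. MORC2 had 3064, 3637, 5131 and 4669 counts, so that both KO samples lay well below both WT samples. It fell by 0.71 on the log2 scale (standard error 0.06), with an adjusted p of 1.37e-04 in the quasi-likelihood F-test of edgeR with Benjamini-Hochberg adjustment over the 16675 genes that passed the filter. The KO mean was 61.1% of the WT mean, and this RNA level does not measure the protein. The paper checked the KO efficiency of both gRNAs by a western blot for MORC2, which was not examined here. MORC2 shares 23.3% of its exonic bases with MORC2-AS1, and the counting used no strand. In bulk cells, fewer cells that carry an RNA and less of it per cell cannot be told apart.

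Most lysosomal genes were well expressed in HEK293T cells. To compare genes, levels are given in CPM (counts scaled to library size with TMM factors) per kb of exon, averaged over the 4 samples. The median of the 45 lysosomal genes that passed the filter was 14.0 CPM per kb, against 4.83 for all genes tested. The CPM summed over the 47 genes was lowest in KO2, at 3086, and highest in WT2, at 3301, with KO1 at 3201 and WT1 at 3193. The KO and WT samples overlap in this sum. With TMM factors the CPM do not add up to the same total in each sample. Those of all genes tested summed to 999981, 973132, 1013650 and 1013791, also lowest in KO2 and highest in WT2. PSAP, PPT1 and LAMP2 gave 29.6% of the lysosomal sum.

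PSAP, the precursor of the saposins that help sphingolipid hydrolases, had the highest level per kb, at 149 CPM per kb. PPT1, a palmitoyl-protein thioesterase, followed at 93.0 and the aspartic protease CTSD at 84.4. CTSL, a cysteine protease, was at 51.8 CPM per kb, the membrane glycoprotein LAMP1 at 50.1, and the β-glucuronidase GUSB at 48.5. LGMN, the asparaginyl endopeptidase, was at 38.6 CPM per kb and GLA, the α-galactosidase A, at 38.4. Neighbours in this order such as CTSL and LAMP1, or LGMN and GLA, overlap between samples, whereas PSAP was above PPT1 in every sample.

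The lowest levels were those of 4 cathepsins and CLN3. CTSO was at 1.08 CPM per kb, CTSK, the collagenolytic cathepsin of osteoclasts, at 0.992, and CTSZ at 0.251. CTSS, the cathepsin of antigen-presenting cells, was at 0.031 CPM per kb, with 3, 11, 7 and 8 counts, and did not pass the filter. CLN3, a lysosomal membrane protein of Batten disease, had 0 counts in every sample. Its entry in the counting annotation is 1 exon of 253 bases on chromosome 16 of T2T-CHM13v2.0 (28747320 to 28747572), of which 72.3% is shared with NPIPB7, so the 0 says nothing of CLN3 expression.

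Markers of the line and of cells rich in lysosomes were looked at beside these levels. The 9 genes that mark HEK293 cells summed to 285, 289.7, 271 and 277 CPM, led by the cadherin CDH2. Both KO samples lay above both WT samples in 7 of the 9 (77.8%, against 24.1% of all genes tested) and below in 1, the neurofilament gene NEFL. NEFM, another neurofilament gene and the 1 marker of the 9 with an unadjusted p under 0.05, had a log2 fold change of 0.44 with an adjusted p of 0.118 in edgeR. The part of these markers in the results on lysosomal genes was not tested. The 9 macrophage and monocyte genes summed to 4.72, 4.74, 4.59 and 3.96 CPM. Most of that was CD68, itself a lysosomal membrane protein, at 2.93, 3.04, 3.19 and 2.48 CPM. TYROBP was at 0 in all samples, and 8 of the 9 were under 1 CPM. Fibroblast, melanocyte and epithelial markers, each list on its own, summed to less than 5 CPM in every sample, with COL1A2 and TYR at 0, and no marker of any list passed the test.

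None of the lysosomal genes passed the test. Of the 45 tested, 0 were called higher and 0 lower in MORC2 KO at an adjusted p of 0.05, where the background over all genes tested was 0.618%, or 0.588% higher (98 genes) and 0.0300% lower (5 genes). The smallest adjusted p was 0.118, that of IDUA. At an unadjusted p under 0.05, edgeR gave 4 genes with a higher and 7 with a lower level in MORC2 KO, 24.4% of the 45 against a background of 14.3% (8.14% higher and 6.17% lower), and DESeq2, which also called 0, gave 9 genes in all. Without KO1, however, 17 of 46 tested genes were called, 6 higher (ARSA, CTSF, GAA, HGSNAT, IDUA and NAGLU) and 11 lower (ASAH1, CTSA, CTSB, CTSH, CTSV, GLA, GM2A, LAMP1, LGMN, NEU1 and PPT1), or 37.0% against a background of 20.5% (8.16% higher and 12.4% lower) in that fit, which takes the lone KO sample to vary like the WT samples. Without KO2, WT1 or WT2 the number called was 0. Among the other settings, offsets for GC content and length called 1 lysosomal gene (background 1.33%), the same offsets with a replicate block 1 (2.22%), the fit without a filter on low counts 3 (2.84%), and the replicate numbers crossed between genotypes, a fit added after seeing the data, 9 (10.3%).

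The changes were small in size. Log2 fold changes ran from -0.26 for CTSV to 0.48 for CTSK, and none reached 0.5 in either direction in the reported fit. Of the 45, 4 were over 0.25 in size (8.89%, against 19.0% of all genes tested). The lysosomal genes have the higher median level, and this share was not computed for genes at the same level. The median size of the log2 fold change was 0.09, against 0.10 for all genes tested. CTSK went past 0.5 in 5 of the 17 other settings, from 0.51 with the replicate block to 0.82 without WT1, and no other lysosomal gene did in any of the 17. Leaving out 1 sample turned the sign or moved the size by over 1.5 times in 36 of the 45 genes. The 9 genes that moved less were IDUA, MANBA, MCOLN1, LAMP1, CTSA, CTSH, CTSV, GALNS and ACP2. The sign turned in 14, which are HGSNAT, GAA, NEU1, CTSZ, CTSC, GLB1, PSAP, IDS, SMPD1, LAMP2, DNASE2, MAN2B1, AGA and HEXA. The 95% interval lay within 0.5 of no change for 41 of the 45 genes, and within 1 for all 45, so a change by 1 on the log2 scale lay outside the interval of each gene tested. The median log2 fold change was -0.03, against 0.01 for all genes tested, and with library size alone as the scaling it was 0.01, against 0.05 for all genes. Of the 45 genes 18 had a positive log2 fold change. The KO and WT samples did not overlap in 27 genes (60.0%, against a background of 47.5%), with both KO samples above both WT samples in 9 (background 24.1%) and below them in 18 (23.4%).

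**Figure D1:**
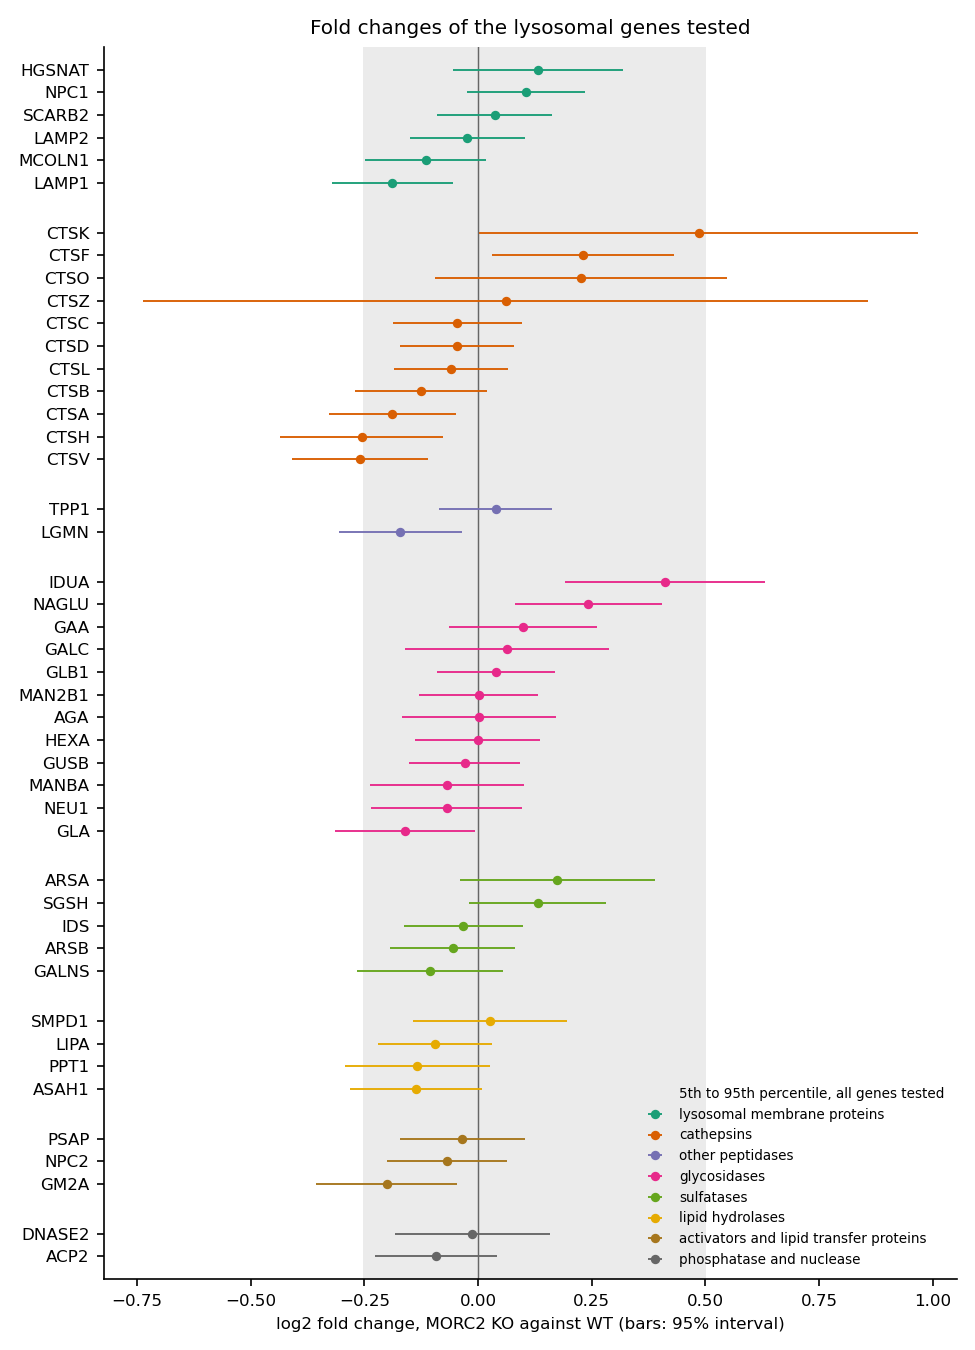
Log2 fold change of MORC2 KO against WT for the 45 lysosomal genes tested, grouped by role, with bars for the 95% interval of the edgeR fit. The grey band spans the 5th to the 95th percentile of all genes tested (-0.25 to 0.50); all but CTSV and CTSH lie inside it and none passed the test at an adjusted p of 0.05.

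Among the membrane proteins, 6 of 7 were tested, with a median log2 fold change of 0.01 (-0.02 to 0.03 with 1 sample left out). LAMP1, which with LAMP2 makes up much of the lysosomal membrane's glycoprotein coat, was at 132, 121, 143 and 145 CPM. Both KO samples lay below both WT samples, with KO2 the lower. Its log2 fold change was -0.19 (95% interval -0.32 to -0.06), with an adjusted p of 0.227 in edgeR. LAMP2 was at 211, 202, 209 and 211 CPM, and its samples overlapped. MCOLN1, the calcium channel of the lysosome, was at 31.7, 31.9, 34.2 and 34.7 CPM, so that its KO samples lay just below WT. NPC1, the cholesterol exporter, was at 111, 114, 101 and 108 CPM, the 1 membrane gene of the list with both KO samples above WT. SCARB2, the receptor that carries β-glucocerebrosidase to the lysosome, had log2 fold changes of 0.00 to 0.07 with 1 sample left out. HGSNAT, the acetyltransferase of heparan sulfate breakdown, was at 47.8, 59.4, 48.5 and 49.5 CPM, and its log2 fold change of 0.13 came from KO2 alone and changed sign without it.

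The cathepsins held both ends of the range. Of 12 genes 11 were tested, and 0 passed the test. In edgeR 2 had an unadjusted p under 0.05 with a higher and 3 with a lower level in MORC2 KO. That is 45.5% of the 11 against the background of 14.3%, which was not computed for genes at the same level. CTSV, a cysteine protease close in sequence to CTSL, was at 21.3, 20.3, 24.8 and 24.9 CPM. The samples were well apart, and the log2 fold change was -0.26 (95% interval -0.41 to -0.11), with an adjusted p of 0.150 in edgeR that came under 0.05 without the filter on low counts and with offsets for GC content and length (0.00349 to 0.682 over all settings). CTSH, an aminopeptidase, was at 13.1, 12.2, 14.9 and 15.2 CPM, a log2 fold change of -0.26. CTSA, the carboxypeptidase that protects NEU1 and GLB1 and shares 10.5% of its exonic bases with PLTP, was at 60.9, 56.3, 64.4 and 69.3 CPM, a log2 fold change of -0.19. In both genes the KO samples were below WT and KO2 was the lower, and edgeR gave adjusted p-values of 0.224 and 0.245.

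CTSK was at 1.86, 1.92, 1.61 and 1.07 CPM. It had the largest log2 fold change of the list, 0.48, with a wide interval (0.00 to 0.97) and an adjusted p of 0.347 in edgeR, and the spread lay in the WT samples, at 96 and 57 counts. Without WT1 its log2 fold change was 0.82 and without WT2 0.23, below that of IDUA. CTSF was at 11.5, 12.9, 10.44 and 10.39 CPM, and CTSO at 3.21, 3.57, 2.91 and 2.89 CPM, with log2 fold changes of 0.23 in both and adjusted p-values of 0.299 and 0.495. These 3 cysteine proteases lay above WT in both KO samples, and without KO2 the log2 fold changes of CTSF and CTSO were 0.15 each. CTSD and CTSL, the most abundant of the group, had log2 fold changes of -0.05 and -0.06, and for CTSD the sign changed with offsets for abundance. Reads that fit both CTSL and CTSV could be counted at either, since reads that map to several places were counted. CTSB, at 58.9, 54.2, 58.9 and 64.6 CPM, overlapped between KO and WT.

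LGMN, which cleaves after asparagine and matures several cathepsins, was at 79.2, 73.2, 83.5 and 88.1 CPM, a log2 fold change of -0.17 (adjusted p of 0.265 in edgeR), or -0.11 without KO2. TPP1, a tripeptidyl peptidase, was at 83.9, 87.6, 84.4 and 82.6 CPM. The KO samples were below WT for LGMN and overlapped WT for TPP1.

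Of the 12 glycosidases all were tested, with a median log2 fold change of 0.00 (-0.02 to 0.04 with 1 sample left out). IDUA, the α-L-iduronidase that trims dermatan and heparan sulfate, was at 8.71, 8.88, 6.60 and 6.63 CPM. The samples of each genotype nearly coincided, the KO mean was 133% of WT, and the log2 fold change was 0.41 (95% interval 0.19 to 0.63), the smallest adjusted p of the list at 0.118 in edgeR. Leaving out any 1 sample gave IDUA a log2 fold change of 0.40 to 0.41. Without the filter on low counts its adjusted p was 0.0138, and over all settings tried edgeR and DESeq2 gave 0.00233 to 0.513. IDUA shares 5.47% of its exonic bases with SLC26A1, and the counting used no strand. NAGLU, the N-acetylglucosaminidase of the same pathway, was at 27.7, 31.3, 24.4 and 25.6 CPM. Its KO samples were above WT, with a log2 fold change of 0.24 (0.15 without KO2) and an adjusted p of 0.205 in edgeR, or 0.0433 without the filter (0.00232 to 0.653 over all settings).

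GLA, whose loss causes Fabry disease, was at 95.7, 82.6, 97.7 and 102 CPM, a log2 fold change of -0.16 with an adjusted p of 0.333 in edgeR. Most of that difference lay in KO2, without which it was -0.06. GAA, the acid α-glucosidase, was at 88.1, 102, 85.0 and 92.8 CPM and overlapped. GUSB was at 105, 106, 107 and 109 CPM, a log2 fold change of -0.03 whose sign changed with library size alone or with offsets for abundance. NEU1 and MANBA had log2 fold changes of -0.07 each (0.04 for NEU1 without KO2, -0.20 without KO1), and GLB1, GALC, HEXA, MAN2B1 and AGA lay between 0.00 and 0.06.

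Among the 5 sulfatases 0 had an unadjusted p under 0.05, against the background of 14.3%. Their median log2 fold change was -0.03, or 0.02 without WT1 and -0.04 without KO2. ARSA, which removes sulfate from sulfatide, was at 15.6, 19.4, 15.5 and 15.5 CPM, and its log2 fold change of 0.17 came from KO2, without which it was 0.01. SGSH, the heparan N-sulfatase, was at 37.4, 39.1, 32.9 and 37.0 CPM, a log2 fold change of 0.13 that was 0.05 without WT1 and 0.22 without WT2. ARSB and GALNS had -0.06 and -0.11, and the iduronate sulfatase IDS had -0.03.

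The lipid hydrolases had a median log2 fold change of -0.11 over 4 genes (-0.04 without KO2, -0.18 without KO1), with 3 of them below WT in both KO samples, against 23.4% of all genes tested and 48.8% of those in the highest level group, where LIPA and PPT1 are, and 27.3% in the middle group, where ASAH1 is. ASAH1, the acid ceramidase, was at 35.6, 32.6, 38.5 and 36.4 CPM, a log2 fold change of -0.14 (-0.07 without KO2) with an adjusted p of 0.375 in edgeR. PPT1, of whose exonic bases 33.6% are shared with CAP1, was at 337, 291, 338 and 350.5 CPM. KO1 lay within 2 CPM of WT1, and KO2 well below all others. The log2 fold change of -0.13 was -0.03 without KO2. LIPA, the acid lipase, had a log2 fold change of -0.09 (-0.06 without KO2, -0.14 without KO1), and that of SMPD1, the acid sphingomyelinase, ran from -0.04 to 0.09 with 1 sample left out.

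GM2A, the activator that presents GM2 ganglioside to hexosaminidase, was at 36.3, 34.6, 38.1 and 43.5 CPM, a log2 fold change of -0.20 with an adjusted p of 0.258 in edgeR. Both KO samples were below WT, and the highest value was that of WT2, without which the log2 fold change was -0.10. PSAP was at 417, 393, 407 and 423 CPM and overlapped, and its log2 fold change of -0.03 changed sign under library size alone, offsets for abundance and without KO2. NPC2, which hands cholesterol to NPC1, had -0.07. ACP2, an acid phosphatase, and DNASE2, the acid nuclease, had -0.09 and -0.01.

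The KO samples did not depart from WT to the same extent. The median size of the difference from the WT mean, in log2(CPM + 0.5), was 0.06 for the 45 genes in KO1 and 0.12 in KO2. All genes tested gave 0.07 and 0.13, so the lysosomal genes shared the larger departure of KO2 with the rest. Both KO samples fell on the same side of the WT mean in 32 of the 45 genes (71.1%, against 69.0% of all genes tested).

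**Figure D2:**
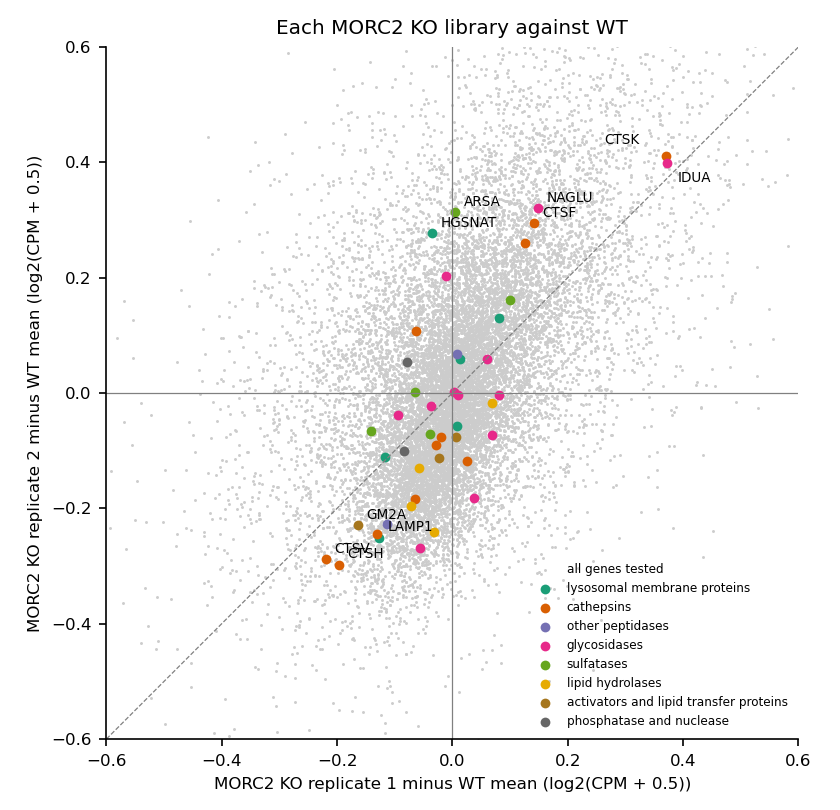
Difference of each MORC2 KO sample from the WT mean, in log2(CPM + 0.5), for the 45 lysosomal genes (coloured by role) over all genes tested (grey), with the line of equal differences dashed. IDUA and CTSK lie near that line in the upper right, whereas HGSNAT and ARSA differ from WT in KO2 alone; genes beyond 0.6 are outside the axes.

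Fold change followed the level of expression, in the lysosomal genes as in the rest. The 45 genes were split into 3 groups of 15 by level per kb, after their values were seen. In the highest group (24.2 to 149 CPM per kb) the median log2 fold change was -0.07, with 12 of 15 genes negative (81.3% of the 2711 genes tested in this range), 10 below WT in both KO samples and 0 above. Those 2711 genes also had a median of -0.07, with 48.8% below WT in both KO samples and 7.78% above, against 66.7% and 0 for the 15 lysosomal genes. The middle group had a median of -0.01, as did the 2856 tested genes in its range. In the lowest group the median was 0.03, with 6 of 15 genes above and 4 (26.7%) below WT in both KO samples. The 7616 tested genes in its range had a median of 0.06, with 30.9% above and 14.1% below. With offsets fitted to the trend on abundance, the medians of the 3 groups were -0.04, 0.02 and -0.03 from the highest to the lowest, and those of the tested genes in the same ranges -0.03, 0.00 and 0.02.

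**Figure D3:**
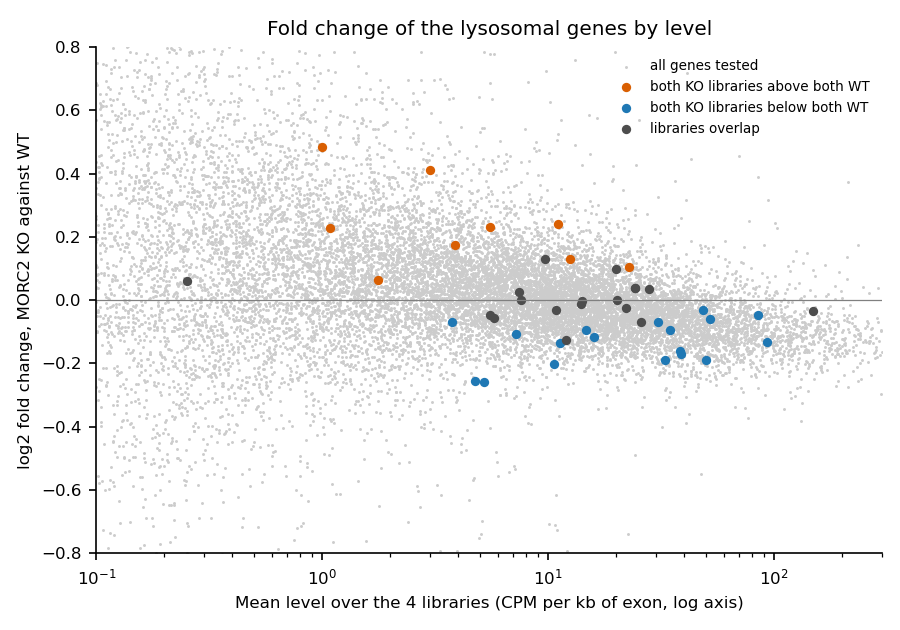
Log2 fold change of MORC2 KO against WT by mean level in CPM per kb of exon (log axis), with all genes tested in grey and the 45 lysosomal genes coloured by whether both KO samples lie above, below or among the WT samples. The lysosomal genes sit within the downward drift of the grey points, and the 15 genes with the highest levels have 10 genes below WT and 0 above; points outside the axes are not shown.

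Of the 6 lysosomal genes with a TCACGTGA site, 5 were tested. LAMP1, CTSA, MCOLN1 and GALNS lay below WT in both KO samples, GAA overlapped, and 0 lay above. A gene lay below WT in both KO samples in 23.4% of all genes tested and in 48.8% of those at the levels of LAMP1 and CTSA, which are in the highest of the 3 level groups. The share was 27.3% in the middle group, which holds MCOLN1, and 14.1% in the lowest, which holds GALNS. Above WT in both KO samples lay 24.1% of all genes tested. That share was 7.78% in the highest group, 22.2% in the middle group and 30.9% in the lowest. The log2 fold changes of the 5 genes ran from -0.19 to 0.10 with a median of -0.12, against -0.03 for the 27 tested lysosomal genes with a promoter at hand and no such site. For the shorter E-box CACGTG, 5 of 9 tested lysosomal genes lay below WT in both KO samples (background 23.4%) and 1 above (CTSF, background 24.1%). These 9 genes are spread over all 3 level groups, whose shares are given above. Their median was -0.07, against -0.03 for the 23 without it. Over all 258 tested genes with TCACGTGA the median was -0.01, and 0 were called in edgeR, against the background of 0.618%.

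Of the MiT/TFE factors themselves, TFEC was the 1 gene called. It had 158, 206, 29 and 19 counts, which is 2.64, 3.12, 0.487 and 0.357 CPM. The samples did not overlap, and the log2 fold change was 2.76 (standard error 0.24), with an adjusted p of 1.37e-04 in edgeR. TFE3 was at 57.8, 55.9, 59.2 and 58.2 CPM, and had a log2 fold change of -0.05. MITF, at 11.1, 11.1, 11.8 and 10.5 CPM, had -0.01, or 0.07 without WT1. With 1 sample left out TFE3 ran from -0.08 to -0.02. TFEB, at 3.73, 4.21, 5.44 and 4.51 CPM, lay lower in both KO samples, with a log2 fold change of -0.33 (-0.18 without WT1) and an adjusted p of 0.326 in edgeR. Per kb of exon, the mean level over the 4 samples was 17.5 CPM for TFE3, 1.77 for MITF, 1.61 for TFEB and 0.244 for TFEC.

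The other genes of the pathway were taken from 7 lists, with 105 genes in all, of which 103 were tested and only TFEC passed (0.971%, against the background of 0.618%). Without KO1 the number called was 32 of 104 tested (30.8%, against a background of 20.5% in that fit). The 12 genes that control MiT/TFE factors, which include mTORC1 and Rag subunits, had a median log2 fold change of 0.00. That median was -0.02 to 0.01 with 1 sample left out. The 2 genes with the smallest p were RRAGD (0.13, or 0.08 without WT2 or KO2) and RPTOR (-0.10, or -0.06 without KO2 and -0.16 without KO1). The 17 autophagy genes had a median of -0.01, or -0.05 without WT1 and 0.02 without KO2. Among them ULK1, a kinase that starts autophagy, was at 76.1, 83.0, 68.6 and 68.4 CPM. Its log2 fold change was 0.22 with an adjusted p of 0.167 in edgeR, and ATG5, a conjugation factor, had -0.19.

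V-ATPase subunits had the lowest median of the related lists. Of 17 genes, 14 (82.4%) had a negative log2 fold change, against 48.5% of all genes tested and 81.3% of those in the highest of the 3 level groups. Among the 17, 8 (47.1%) were below WT in both KO samples and 1 (5.88%) above, and the median was -0.09 (-0.03 without KO2, -0.17 without KO1). The shares of all tested genes in the highest of the 3 level groups were 48.8% and 7.78%, and those of all genes tested 23.4% and 24.1%. ATP6V1F was at 101, 83.0, 109.7 and 108 CPM. Its log2 fold change was -0.25 (-0.11 without KO2, -0.41 without KO1), with an adjusted p of 0.216 in edgeR, and ATP6V1G1 had -0.16. In 16 of the 17 genes KO2 was below KO1, against 49.2% of all genes tested. This share was not computed for genes at the same level, so it is not shown to be particular to the list. The summed CPM of the list was 1948, 1768, 1967 and 2029, and its median level of 39.3 CPM per kb falls in the range of the 15 lysosomal genes with the highest levels.

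Of the 21 other hydrolases 20 were tested, with a median log2 fold change of -0.01. That median ran from -0.10 without WT1 to 0.03 without WT2. ARSG, a sulfatase of heparan sulfate breakdown, was at 8.31, 9.22, 6.82 and 6.80 CPM, a log2 fold change of 0.36 with an adjusted p of 0.178 in edgeR. ARSG shares 10.2% of its exonic bases with WIPI1. ARSK, another sulfatase, had -0.21. Among 22 other membrane proteins 21 were tested, with a median of 0.00 (-0.01 to 0.03 with 1 sample left out). TMEM175, a channel of the lysosomal membrane, was at 18.5, 21.2, 16.7 and 15.7 CPM, a log2 fold change of 0.29 (0.19 without KO2) with an adjusted p of 0.181, and MFSD8 had 0.18 (0.12 without WT2). The 12 genes of mannose 6-phosphate sorting and enzyme maturation had a median of 0.00 (-0.02 to 0.02 with 1 sample left out). Of these, CLN6 was at -0.14 and the receptor M6PR, of whose exonic bases 38.4% are shared with PHC1, at -0.12.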

How the data were processed

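RNA-seq counts of 4 HEK293T samples were analysed (2 MORC2 KO, 2 WT). Alignment by the authors was to T2T-CHM13v2.0 (subread), and the deposited values are raw counts per RefSeq gene from featureCounts 2.0.6. The recorded command counts reads that map to several places, ignores strand and drops reads over several genes, so that paralogs and overlapping genes are uncertain. Of 28775 Entrez identifiers 28763 were matched to symbols of RefSeq on GRCh38.p14, and columns of other samples numbered 0. The members, the related lists and the tests were chosen with earlier results of these data known.

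Low counts were filtered with filterByExpr, libraries were scaled with TMM (factors 0.986 to 1.03), and genotypes were compared by QL F-tests in R 4.3.3 with edgeR 4.0.16 (older form), with Benjamini-Hochberg adjustment over all 16675 genes at 0.05, and a BCV of 5.33%. Standard errors are the log2 fold change over the square root of F. DESeq2 1.42.0, other scalings, offsets, filters, replicate numbers and left-out samples were alternatives. The fit was tested on simulated data, in which edgeR called 69.7% of changes of 0.5 on the log2 scale and 89.7% of changes of 1. Smaller changes were not simulated, and all 4 simulated samples had the same dispersion for a gene. Chi-square over degrees of freedom came to 16.8 for the KO and 6.56 for the WT samples. The samples within a genotype thus differed by more than repeat sequencing of the same library would give. Whether they came from separate cultures was not tested.

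Genes named were MORC2, the 8 lysosomal genes with the highest and the 8 with the lowest log2 fold change, the 6 with the smallest p, the 8 highest and 4 lowest in level, those that failed the filter or share 10% of their exonic bases, the MiT/TFE factors, and the 2 genes with the smallest p in each related list. Others were named to complete their group, to place the sites or, as for NEFL and NEFM, after their values were seen.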

Additional observations from a re-analysis of the deposited data

How the results depend on the processing

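For the 45 lysosomal genes tested, 765 values were computed under 17 other settings. In 734 the side of the threshold was the same, and 31 passed it where the reported fit did not. The sign differed in 43 values of 16 genes, and none of these 43 values passed the test. The tested lysosomal genes with the fewest counts, CTSZ, CTSK and CTSO, have the widest intervals.

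The median log2 fold change of the lysosomal genes was 0.0077 with library size alone and ran from -0.062 to -0.014 with samples left out. Leaving out each sample in turn gave 0 to 6 lysosomal genes called higher, 0 to 11 lower and 1 to 32 genes of the related lists, with all calls of lysosomal genes in the fit without MORC2 KO replicate 1, and MORC2 stayed between -0.76 and -0.67. GC content and length offsets gave 1 lysosomal gene called lower (CTSV), against 187 higher and 34 lower among all genes. Without the filter on low counts 2 were called higher (IDUA and NAGLU), 1 lower (CTSV) and 5 in the related lists, against 463 and 182 among all genes.

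The replicate numbers are shared between genotypes, and no label says that they pair the samples. With the replicate block 0 lysosomal genes were called higher and 0 lower (237 and 42 among all genes), and with GC content and length offsets added to the block 1 was lower (CTSV). The correlation over genes of the replicate differences was -0.124, and with the numbers crossed, a pairing chosen after seeing the data, 2 were called higher, 7 lower and 13 in the related lists (903 and 809 among all genes). The cause of these differences was not tested.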
